A study of Sus scrofa with 12 samples.

Results

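A set of 44 genes of the DNA damage response and homologous recombination was followed through the in vitro maturation (IVM) of porcine oocytes. The members were listed by name for their roles in damage signalling and DNA repair, with earlier results of these data known, and 41 of the 44 were matched to one of the 31908 Ensembl gene identifiers. Of these, 31 averaged 1 FPKM or more across libraries and were tested together with all 7013 such genes, 10 lay under that mean, and RAD51D, XRCC4 and OGG1 were not analysed here. Denuded oocytes of prepubertal gilts were collected at 0h, 22h and 46h of IVM, with 4 libraries for each stage, 12 in all, and 20 oocytes per library. The groups differ in their time in culture, for which complexes of oocyte and cumulus cells were kept in a medium with follicular fluid, epidermal growth factor and gonadotropins, so time and exposure to that medium cannot be told apart. RNA was amplified with SMART-Seq2, in which an oligo-dT primer anneals to the poly(A) tail of a transcript. A longer tail and more molecules of a transcript therefore cannot be told apart, and neither can less RNA per oocyte and fewer oocytes with the transcript in a pool. FPKM stands for fragments per kilobase of transcript and per 1000000 mapped fragments, a level set relative to transcript length and to the library.

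The damage response starts with kinases that sense breaks or stalled forks. ATM is recruited to breaks by the MRN complex, ATR to RPA-coated single strands through ATRIP, and each passes the signal on to the checkpoint kinases CHEK2 and CHEK1. Breaks are then either joined end to end by the Ku-dependent pathway or resected and repaired from a homologous copy, a route that needs BRCA1, PALB2 and BRCA2. A fully grown oocyte is arrested in prophase of meiosis with its homologues already recombined, transcribes little once meiosis resumes, and hands its store of repair transcripts and proteins to the embryo.

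The libraries carried the transcripts of oocytes. All 12 matched oocyte markers of a list of 15 were present in every library, among them ZP3, GDF9, BMP15 and MOS, and their summed level was 28396 to 36794 (0h), 34877 to 39850.2 (22h) and 31143 to 36574 FPKM (46h). Most of that sum at 46h was BTG4, whose mean went from 15762 ± 1507 (0h) to 28330.2 ± 1878 FPKM (46h), while the means of the other 11 were lower at 46h than at 0h, such as ZP3 with 2967 ± 1188 and then 95.5 ± 69.7 FPKM and GDF9 with 984 ± 548 and then 37.8 ± 3.73 FPKM. Of 27 markers of cumulus or granulosa cells 24 were matched, and LHCGR, AMHR2, INHA, NR5A1, KRT8 and KRT18 were listed at 0 in all libraries. The summed level of the 24 was 46.6 to 89.1 (0h), 55.9 to 86.1 (22h) and 118 to 143 FPKM (46h). Most of it was VCAN, at 58.3 ± 22.2 (0h), 65 ± 14.2 (22h) and 126 ± 14.4 FPKM (46h), and the cells it came from were not tested. Without STAR, FST and VCAN, the markers of this list that averaged at least 1 FPKM, the sum was at most 1.39 FPKM in any library. Mitochondrially encoded genes for proteins, 13 in number, made up 1.79 to 3.76% of each 0h library, 8.06 to 12% of each 22h library and 12.8 to 16.7% of each 46h library, and their part in the changes below was not tested beyond the rescaled fits named there. Replicate 4 at 0h stood apart, with correlations of log2(FPKM + 1) of 0.934 to 0.970 with the other 0h libraries, against 0.979 to 0.988 among those. Read numbers are unknown, so the spread over the 4 libraries of a stage is the error used, given as SD for levels. The labels do not tie replicates to separate animals, and p-values measure the spread between these samples, which may be technical.

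More members rose than fell by 46h, except with values rescaled to TPM, where the counts were equal, whereas over all genes falls outnumbered rises except with quantile normalization. At 46h against 0h, 12 of the 31 tested members (38.7%) were higher and 10 (32.3%) were lower by limma, with a fold change over 1.5 and a Benjamini-Hochberg adjusted p under 0.05. Over all 7013 genes tested 16.8% were higher and 39.1% were lower in the same comparison. The members had a median log2 fold change of 0.12, against -0.25 for all genes tested. At 22h against 0h, 3 members were higher and 4 lower, where 7.84% and 18.9% of all genes were. At 46h against 22h, 6 members were higher and 7 lower, where 9.87% and 32.6% of all genes were. The split of the 22 calls at 46h against 0h depended on the scaling of the libraries, as the bar chart of scalings shows. With median-of-ratios scaling it was 15 higher and 7 lower, where 29.2% and 33% of all genes were. With quantile normalization it was 18 and 5, where 41% and 25.5% of all genes were, and with TPM 10 and 10, where 14.3% and 41.8% were. The median log2 fold change under these was 0.51, 0.76 and 0.03 for the members and 0.06, 0.37 and -0.35 for all genes. Without replicate 4 at 0h, 13 members were higher and 9 lower. The shares of all genes without that library are not given here, so these 2 counts cannot be read as particular to the members.

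The members differed widely in level. At 0h they ranged from 1.31 ± 0.253 FPKM for ATR to 198 ± 46.2 FPKM for RPA3 among those tested, and RPA3 and RPA2 were the most abundant at every stage. Per library, the 41 matched members together held 0.103 to 0.109% (0h), 0.12 to 0.14% (22h) and 0.144 to 0.159% (46h) of the summed FPKM. These ranges do not overlap. The median over the 41 members did not rise with that share, at 6.3 to 7.66 (0h), 6.32 to 7.44 (22h) and 4.16 to 6.15 FPKM (46h) per library. Without RPA2 and RPA3 the summed level was 433 ± 19.5 (0h), 474 ± 14.4 (22h) and 539 ± 11.6 FPKM (46h). In the sentences on single members, the 4 values of a stage are those of replicates 1 to 4 in that order, and each fold change is the difference of log2(FPKM + 1) between stages with its standard error from limma, adjusted over all genes tested. That scale understates the change of genes at low levels. Positions are those of RefSeq on Sscrofa11.1.

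**Figure D1:**
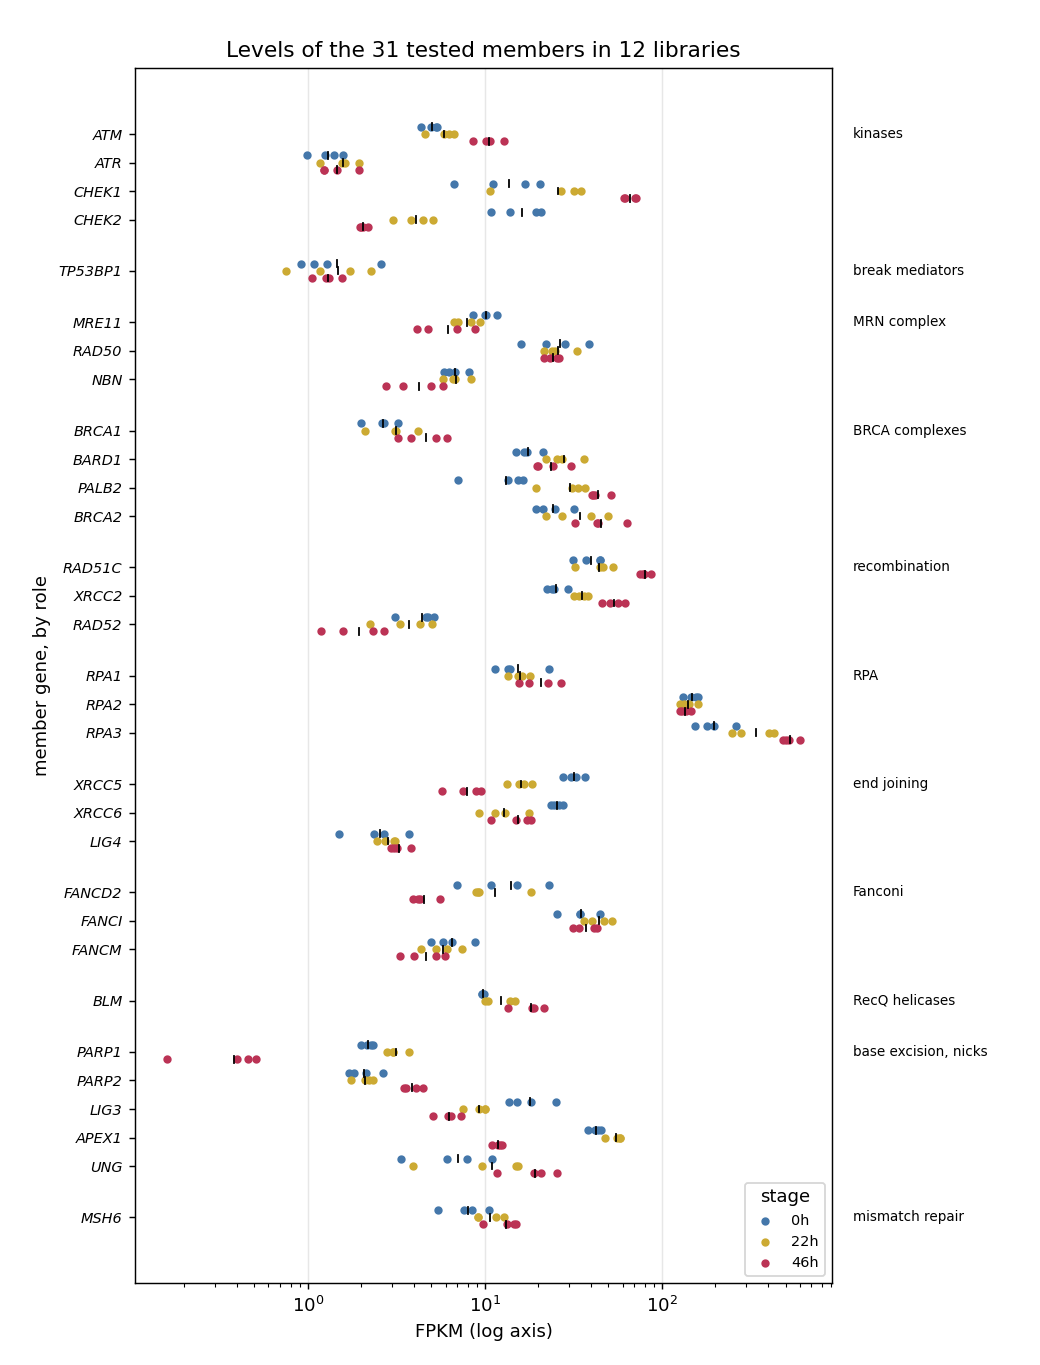
FPKM of the 31 tested members on a log axis, grouped by role, with 1 point for each of the 4 libraries at 0h, 22h and 46h and a black bar at each stage mean. RPA3 and RPA2 lie above all others at every stage, and PARP1 at 46h, with 0.16 to 0.51 FPKM, is the lowest.

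The kinases parted. ATM (chr9:36620656-36759555), the kinase activated at DNA breaks, stood at 5.37, 5.33, 4.99 and 4.35 (0h), 5.89, 6.7, 4.62 and 6.32 (22h) and 10.8, 12.8, 8.57 and 10.2 FPKM (46h). All 46h libraries lay above all earlier ones, and ATM rose at 46h against 22h (log2 fold change 0.75 ± 0.16, adjusted p = 0.00146) and against 0h (0.94 ± 0.16, adjusted p = 0.000136). Its sister kinase ATR, activated by single-stranded DNA, passed in no comparison, with 1.31 ± 0.253 (0h), 1.58 ± 0.32 (22h) and 1.47 ± 0.335 FPKM (46h), though at 46h against 0h it did with quantile normalization (0.76 in place of 0.09 ± 0.15). ATRIP, the partner that ATR needs, lay under 1 FPKM on average and is given with the other low members.

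CHEK1 and CHEK2, the effector kinases that restrain CDC25 phosphatases and thereby entry into M phase, moved in opposite directions. CHEK1 (chr9:52759224-52790878) was at 16.8, 20.5, 11.1 and 6.67 (0h), 10.7, 26.9, 31.8 and 35 (22h) and 61.9, 70.5, 61.5 and 71.5 FPKM (46h). The 46h libraries lay far above the rest, while those of 0h and 22h overlapped. CHEK1 rose at 46h against 22h (log2 fold change 1.43 ± 0.35, adjusted p = 0.0038) and against 0h (2.29 ± 0.35, adjusted p = 5.15e-05), where the mean was 4.82 times as high, the largest rise among the members. The difference at 22h against 0h did not pass (0.86 ± 0.35, adjusted p = 0.076), though it did without replicate 2 at 0h (1.07, adjusted p = 0.0382), without replicate 1 at 22h (1.22, adjusted p = 0.00576) and with quantile normalization (1.02, adjusted p = 0.0499). CHEK2 (chr14:45699833-45967350) was at 19.5, 20.9, 14 and 10.9 (0h), 4.47, 3.02, 5.11 and 3.82 (22h) and 2.19, 2, 2.04 and 1.97 FPKM (46h). No 2 stages overlapped, and the 46h libraries were within 1.97 to 2.19 FPKM. CHEK2 fell at 22h (log2 fold change -1.74 ± 0.20, adjusted p = 3.93e-05) and was lower at 46h than at 0h (-2.46 ± 0.20, adjusted p = 9.1e-08), the largest fall among the tested members in that comparison. Its further fall after 22h (-0.73 ± 0.20, adjusted p = 0.00818) was lost under median-of-ratios and under quantile scaling, with adjusted p = 0.106 and 0.459.

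Of the mediators that gather repair factors at marked chromatin, TP53BP1, which shields ends from resection, stood at 1.08, 0.91, 1.29 and 2.6 (0h), 2.28, 1.74, 1.18 and 0.75 (22h) and 1.56, 1.32, 1.06 and 1.27 FPKM (46h). The stages overlapped and it passed in no comparison (46h against 0h -0.06 ± 0.22, adjusted p = 0.831); with quantile normalization its sign turned and it passed, at 0.64. MDC1, the reader of phosphorylated H2AX, is among the low members.

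The MRN complex holds broken ends and activates ATM, and 2 of its 3 subunits were lower at 46h than at 0h as deposited, as were 39.1% of all genes tested. RAD50, the coiled-coil subunit and the most abundant of the complex, stood at 22.3, 16.1, 28.6 and 39 (0h), 33.4, 24.9, 24 and 21.6 (22h) and 26.4, 21.6, 25.7 and 23.5 FPKM (46h). The stages overlapped and no comparison passed (46h against 0h -0.05 ± 0.23, adjusted p = 0.849, 95% confidence interval -0.55 to 0.44). MRE11, the nuclease, was at 8.55, 10.1, 10.1 and 11.7 (0h), 8.39, 9.43, 6.72 and 7.04 (22h) and 4.77, 8.79, 4.16 and 6.96 FPKM (46h). Replicate 2 at 46h reached the 0h range, and MRE11 was lower at 46h than at 0h (-0.67 ± 0.20, adjusted p = 0.00992). NBN, which binds ATM, was at 5.91, 6.77, 6.3 and 8.14 (0h), 8.31, 6.77, 6.62 and 5.84 (22h) and 3.44, 5.8, 2.77 and 4.94 FPKM (46h). All 46h libraries lay below those of 0h and 22h, and NBN was lower at 46h than at 22h (-0.62 ± 0.19, adjusted p = 0.0164) and than at 0h (-0.60 ± 0.19, adjusted p = 0.0142). These calls of MRE11 and NBN were lost under median-of-ratios and under quantile scaling (NBN against 0h also with TPM without mitochondrially encoded genes), and under quantile normalization NBN at 46h against 0h turned to 0.08. Leaving out replicate 1 or 3 at 46h also ended each of them, with MRE11 at -0.58 and -0.53 and NBN at -0.53 and -0.46 against 0h, and so did, for NBN, leaving out replicate 4 at 0h (-0.52 against 0h) or replicate 1 at 22h (-0.54 against 22h).

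Of the 4 BRCA genes 3 were higher at 46h than at 0h, as were 16.8% of all genes tested, and PALB2 had the largest change of these. PALB2 (chr3:22586881-22612837), which bridges BRCA1 and BRCA2, was at 16.4, 15.5, 13.5 and 7.09 (0h), 19.4, 31.2, 36.7 and 33.5 (22h) and 40.2, 51.6, 41 and 42.2 FPKM (46h). No stage overlapped another. It rose at 22h against 0h (1.17 ± 0.25, adjusted p = 0.00302) and was higher at 46h than at 0h (1.72 ± 0.25, adjusted p = 3.14e-05), with a mean 3.34 times as high, while the step after 22h did not pass (0.55 ± 0.25, adjusted p = 0.0823), though it did with median-of-ratios scaling (0.90) and quantile normalization (0.97). BRCA2, a mediator of homologous recombination and the most abundant of these genes, was at 19.5, 24.9, 32 and 21.2 (0h), 49.6, 39.7, 27.2 and 22.1 (22h) and 63.5, 43, 32.1 and 43.4 FPKM (46h). The 46h libraries lay above all of 0h, narrowly at the closest, and BRCA2 was higher at 46h than at 0h (0.86 ± 0.26, adjusted p = 0.011).

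BRCA1, a ubiquitin ligase that promotes resection, was at 2.71, 2.64, 2.01 and 3.22 (0h), 4.19, 3.16, 3.11 and 2.11 (22h) and 5.29, 3.83, 3.25 and 6.15 FPKM (46h). It was higher at 46h than at 0h (0.61 ± 0.20, adjusted p = 0.0173), and every 46h library exceeded every 0h one. Without replicate 3 at 0h, 1 at 46h or 4 at 46h it did not pass, at 0.52, 0.54 and 0.48, nor did it with TPM, at 0.56. BARD1, the obligate partner of BRCA1, stood at 16.6, 15, 17.2 and 21.2 (0h), 27.2, 36.5, 25.5 and 22.2 (22h) and 24.4, 30.7, 19.6 and 19.9 FPKM (46h). It was higher at 22h than at 0h (0.63 ± 0.19, adjusted p = 0.0238) with no overlap, but not at 46h (0.40 ± 0.19, adjusted p = 0.0849), where it passed with median-of-ratios scaling (0.79) and quantile normalization (0.95). The call at 22h was lost without replicate 1, 2 or 3 at 0h or replicate 2 at 22h, when it was 0.61, 0.56, 0.62 and 0.49 with adjusted p of 0.0555, 0.0614, 0.0539 and 0.0812.

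**Figure D2:**
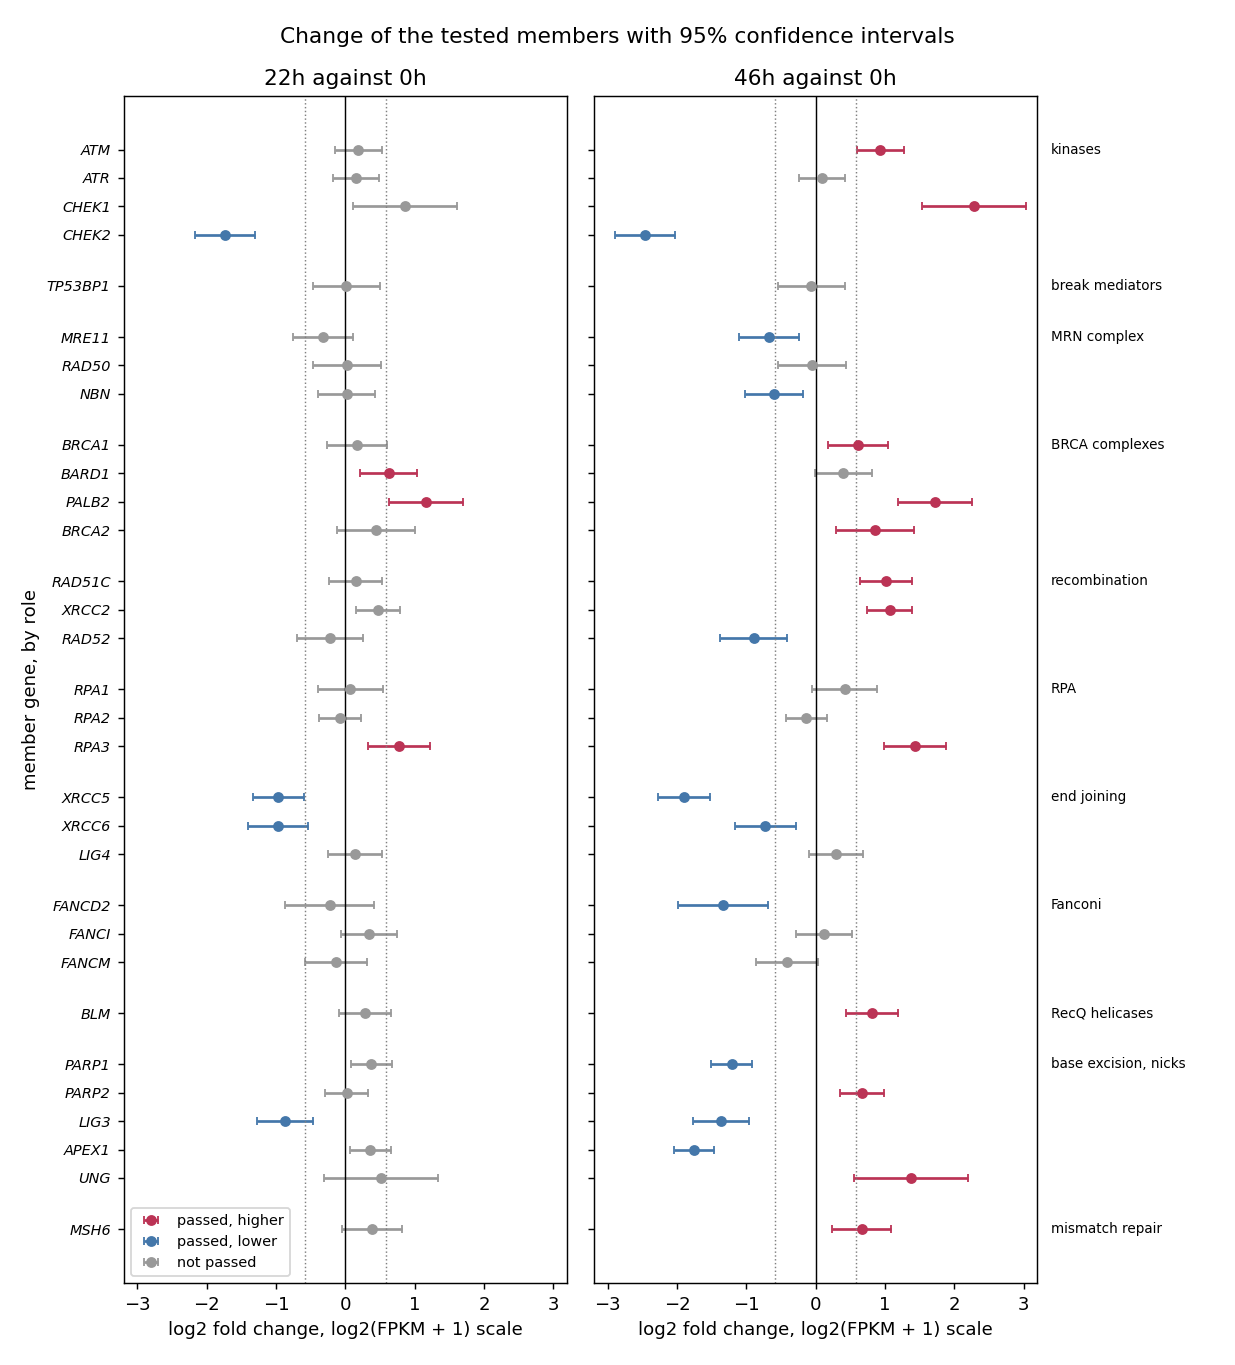
Log2 fold change of each tested member with its 95% confidence interval at 22h against 0h (left) and 46h against 0h (right), on the log2(FPKM + 1) scale, with dotted lines at a fold change of 1.5. At 46h the 12 higher members include CHEK1 at 2.29 and PALB2 at 1.72, and the 10 lower ones include CHEK2 at -2.46 and XRCC5 at -1.90.

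RAD51C and XRCC2, which act in homologous recombination, both rose. RAD51C (chr12:34975949-35018112) was at 44.6, 45, 37.2 and 31.6 (0h), 32.2, 44.9, 46.8 and 52.9 (22h) and 75.7, 78.3, 79.6 and 87.3 FPKM (46h). The 46h libraries lay above all others, those of 0h and 22h overlapped, and RAD51C rose at 46h against 22h (0.87 ± 0.18, adjusted p = 0.00104) and against 0h (1.01 ± 0.18, adjusted p = 0.000171). XRCC2, which shares a complex with RAD51C, was at 22.6, 29.5, 24 and 24.5 (0h), 32.1, 36.5, 34.2 and 38.2 (22h) and 51.2, 46, 56.3 and 62.2 FPKM (46h). The stages were fully separate and XRCC2 was higher at 46h than at 0h (1.07 ± 0.15, adjusted p = 2.25e-05). At 22h against 0h it was 0.47 ± 0.15, under the fold change of 1.5. The step after 22h passed narrowly (0.59 ± 0.15, adjusted p = 0.00463), and fell under that fold change with TPM and without replicate 1 or 3 at 22h or 3 or 4 at 46h, at 0.51 to 0.58.

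RAD52, which anneals single strands, went the other way with 4.79, 5.17, 4.64 and 3.12 (0h), 2.25, 3.33, 5.05 and 4.29 (22h) and 1.19, 2.7, 2.33 and 1.58 FPKM (46h). The 46h values lay below those of 0h, and RAD52 was lower at 46h than at 0h (-0.89 ± 0.22, adjusted p = 0.00306) and than at 22h (-0.67 ± 0.22, adjusted p = 0.023). The first call was lost with quantile normalization (-0.21). The second was lost with no filter on low values, with median-of-ratios scaling, with quantile normalization and without replicate 3 or 4 at 22h or 1 or 4 at 46h, when it ranged from -0.16 to -0.67.

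Replication protein A (RPA) coats single-stranded DNA as a complex of one copy each of its 3 subunits, and of these RPA3 passed the test. RPA3 (chr9:77910876-77914872), the smallest subunit, was the most abundant member, at 153, 179, 197 and 262 (0h), 406, 429.9, 249 and 279.8 (22h) and 606, 499.9, 482 and 526 FPKM (46h). The 46h libraries lay above the rest and replicate 3 at 22h lay within the 0h range. RPA3 rose at 22h (0.77 ± 0.21, adjusted p = 0.0129) and stood higher still by 46h (against 0h 1.44 ± 0.21, adjusted p = 3.57e-05), and the step after 22h passed too (0.66 ± 0.21, adjusted p = 0.0179) but not with TPM (0.57) or without replicate 3 or 4 at 22h or 1 at 46h (0.53, 0.58 and 0.60). RPA2, the middle subunit, stood at 148 ± 12.2 (0h), 140.5 ± 14.4 (22h) and 135 ± 8.62 FPKM (46h) and passed in no comparison (46h against 0h -0.13 ± 0.14, adjusted p = 0.431, 95% confidence interval -0.43 to 0.17). RPA1, the large subunit, was at 15.4 ± 5.12 (0h), 15.8 ± 1.87 (22h) and 20.7 ± 5.04 FPKM (46h) and did not pass either (46h against 0h 0.42 ± 0.22, adjusted p = 0.107), though it did with median-of-ratios scaling, with quantile normalization and without replicate 4 at 0h, at 0.80, 0.99 and 0.62, and at 46h against 22h it did with both scalings, at 0.69 and 0.82.

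The Ku genes of end joining were lower already at 22h. XRCC5 (chr15:118354943-118451974), the larger Ku subunit, was at 32.9, 30.7, 27.8 and 36.8 (0h), 16.6, 13.3, 18.4 and 15.6 (22h) and 8.95, 9.56, 5.75 and 7.58 FPKM (46h). The stages did not overlap, and XRCC5 fell at 22h (-0.96 ± 0.17, adjusted p = 0.000938) and again by 46h (-0.93 ± 0.17, adjusted p = 0.00051), to -1.90 ± 0.17 against 0h (adjusted p = 3.08e-07). The second of these steps did not reach the fold change of 1.5 with quantile normalization (-0.43). XRCC6 (chr5:6903496-6929162), the other Ku subunit, was at 23.7, 24.6, 27.6 and 26.2 (0h), 9.26, 11.4, 17.9 and 13.1 (22h) and 10.8, 18.2, 15 and 17.4 FPKM (46h). All 0h libraries lay above all later ones, and XRCC6 fell at 22h (-0.97 ± 0.20, adjusted p = 0.0027), while the step after 22h did not pass (0.24 ± 0.20, adjusted p = 0.34), though it did with quantile normalization (0.70). Its 2 steps differed (difference 1.21 ± 0.35, adjusted p = 0.0245). Of all genes tested, 4.73% had a larger rise or smaller fall after 22h than before it, and XRCC6 was the single member to pass this way. That call was lost with no filter on low values, without any one of replicates 1, 2 and 4 at 22h and without replicate 4 at 46h. XRCC6 was lower at 46h than at 0h (-0.72 ± 0.20, adjusted p = 0.00628), but not with median-of-ratios scaling (-0.34), quantile normalization (-0.18) or without replicate 1 at 46h (-0.57). LIG4, the ligase of this pathway, stood at 2.57 ± 0.93 (0h), 2.85 ± 0.309 (22h) and 3.27 ± 0.39 FPKM (46h) and passed in no comparison, though at 46h against 0h it did with median-of-ratios scaling (0.59) and quantile normalization (0.97), and at 46h against 22h with the latter (0.65).

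Among the Fanconi anaemia genes, which act on crosslinks between strands, FANCD2 was the member that changed. FANCD2, a part of the clamp loaded onto DNA, was at 10.8, 7, 15.3 and 23.1 (0h), 18.2, 9.11, 9.23 and 8.94 (22h) and 5.62, 3.94, 4.32 and 4.2 FPKM (46h). All 46h libraries lay below all earlier ones, and FANCD2 was lower at 46h than at 22h (-1.11 ± 0.30, adjusted p = 0.00736) and than at 0h (-1.34 ± 0.30, adjusted p = 0.00139). The first call was lost with quantile normalization (-0.62, adjusted p = 0.0684). FANCI, the other part of that clamp, was the more abundant, at 34.7, 25.5, 34.4 and 44.9 (0h), 52.4, 46.9, 36.4 and 40.2 (22h) and 43.1, 33.9, 41.5 and 31.7 FPKM (46h). Its stages overlapped and no comparison passed (46h against 0h 0.12 ± 0.19, adjusted p = 0.606), though this one did with quantile normalization (0.62). FANCM, a translocase that senses stalled forks, stood at 6.53 ± 1.66 (0h), 5.8 ± 1.31 (22h) and 4.63 ± 1.2 FPKM (46h) and did not pass.

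BLM, the RecQ helicase that dissolves recombination intermediates, was at 9.74, 9.69, 9.68 and 9.88 (0h), 14, 14.8, 10.4 and 9.99 (22h) and 21.7, 13.5, 18.4 and 18.9 FPKM (46h). The 0h libraries lay close together, from 9.68 to 9.88 FPKM, and all later libraries exceeded them. BLM was higher at 46h than at 0h (0.81 ± 0.17, adjusted p = 0.000944), and its 22h value lay between (0.29 ± 0.17 against 0h).

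All 5 tested members of base excision and single-strand break repair passed at 46h against 0h, 2 higher and 3 lower, where 16.8% and 39.1% of all genes tested were. Of 9 tested genes of this kind outside the members, 5 were higher and 0 lower in that comparison. APEX1 (chr7:78451845-78454938), the endonuclease that cuts at abasic sites, was at 42.2, 45.4, 43.8 and 38.1 (0h), 47.9, 57.9, 55.6 and 57.9 (22h) and 11, 12.5, 11.9 and 12.2 FPKM (46h). The 22h libraries lay above the 0h ones and the 46h libraries far below both. APEX1 was lower at 46h than at 22h (-2.11 ± 0.14, adjusted p = 1.57e-08) and than at 0h (-1.75 ± 0.14, adjusted p = 5.38e-08), while the difference at 22h did not pass (0.36 ± 0.14, adjusted p = 0.0545). PARP1, the sensor of nicks and breaks, had the same shape at a low level, with 2.34, 2, 2.27 and 2.15 (0h), 2.8, 3.73, 3.04 and 3.04 (22h) and 0.51, 0.46, 0.4 and 0.16 FPKM (46h). PARP1 was lower at 46h than at 22h (-1.59 ± 0.14, adjusted p = 3.84e-07) and than at 0h (-1.21 ± 0.14, adjusted p = 3.12e-06), and the latter difference did not reach the fold change of 1.5 with quantile normalization (-0.47). For both genes the step after 22h differed from the step before it, by -2.48 ± 0.23, adjusted p = 4.53e-06 for APEX1 and -1.97 ± 0.24, adjusted p = 4.72e-05 for PARP1. Of all genes tested, 16.2% had a larger fall or smaller rise after 22h, and APEX1 and PARP1 were the members that passed this way.

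LIG3 (chr12:40153105-40205077), the ligase that seals nicks and serves the mitochondrial genome, was at 15.2, 13.6, 18.2 and 25.2 (0h), 10, 9.28, 9.98 and 7.58 (22h) and 6.23, 7.3, 5.09 and 6.47 FPKM (46h). The stages did not overlap, and LIG3 fell at 22h (-0.87 ± 0.19, adjusted p = 0.00347) and was lower at 46h than at 0h (-1.36 ± 0.19, adjusted p = 2.14e-05). UNG, the glycosylase that removes uracil, was at 10.9, 7.95, 6.08 and 3.36 (0h), 3.93, 9.62, 15 and 15.4 (22h) and 11.8, 20.9, 25.5 and 19.1 FPKM (46h). It spread widely within the stages, yet all 46h libraries exceeded all of 0h, and UNG was higher at 46h (1.37 ± 0.38, adjusted p = 0.00613). PARP2, the second nick-activated polymerase, stood at 2.08 ± 0.427 (0h), 2.11 ± 0.259 (22h) and 3.9 ± 0.464 FPKM (46h), and rose at 46h against 22h (0.66 ± 0.15, adjusted p = 0.00214) and against 0h (0.67 ± 0.15, adjusted p = 0.0011). PARP1 and PARP2 thus passed in opposite directions. MSH6, which recognises base mismatches in newly made DNA, was at 7.66, 5.46, 8.5 and 10.6 (0h), 11.5, 12.8, 9.18 and 9.18 (22h) and 14.7, 9.78, 15 and 13.3 FPKM (46h). It was higher at 46h than at 0h (0.66 ± 0.20, adjusted p = 0.0102), with overlap, and fell under the fold change of 1.5 with TPM (0.58) and without replicate 2 at 0h (0.51).

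**Figure D3:**
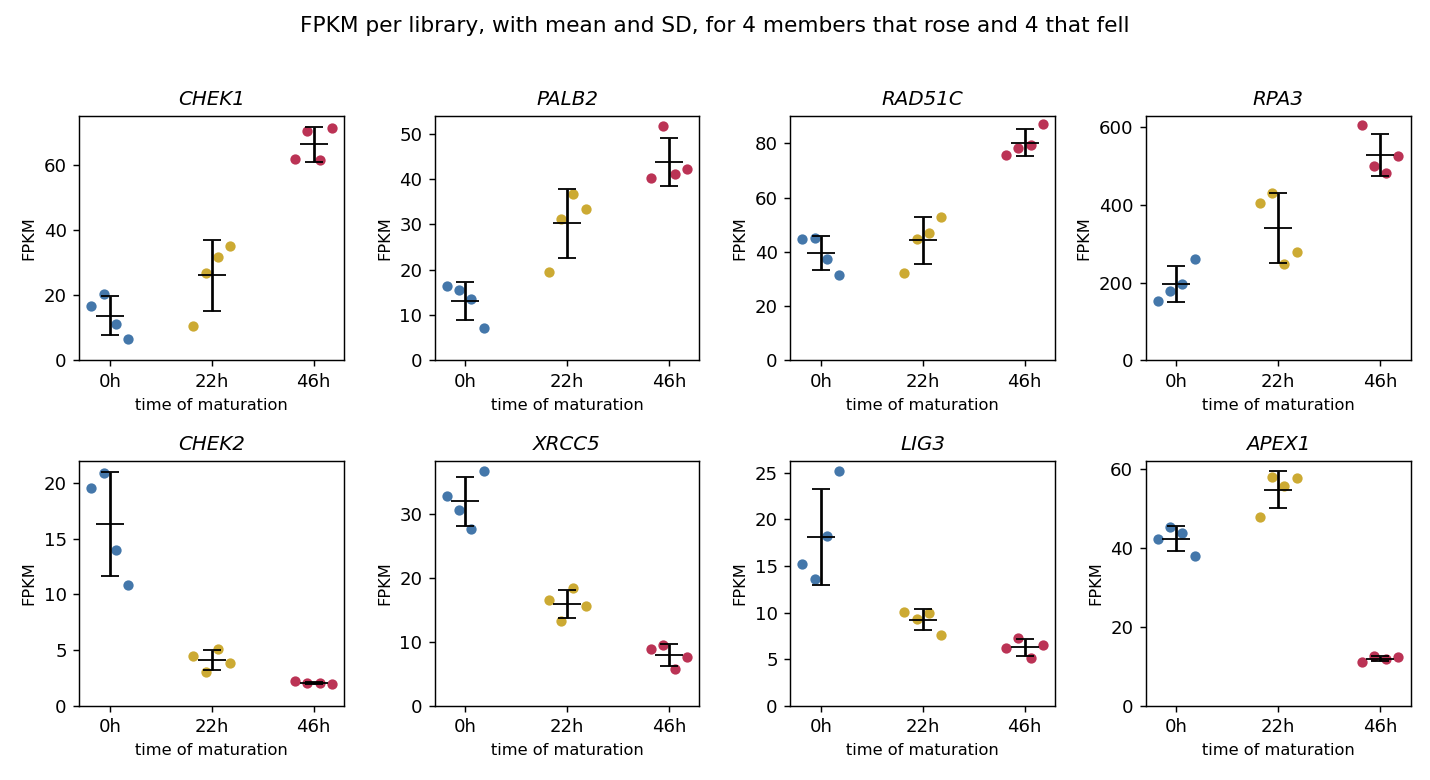
FPKM in each library, with the mean and SD of the 4 libraries of a stage, for 4 members that rose by 46h (CHEK1, PALB2, RAD51C, RPA3) and 4 that fell (CHEK2, XRCC5, LIG3, APEX1); each panel has its own axis starting at 0. In all 8 panels, taken from members that changed, no 46h library overlaps a 0h library, and APEX1 stands highest at 22h. Among all tested members, the 46h libraries lay wholly above those of 0h for 11 and wholly below for 9. For the other 11 these stages overlapped. The share of all genes tested with such a separation is not given here.

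The 10 matched members under a mean of 1 FPKM were ATRIP, MDC1, XRCC3, RAD54L, PRKDC, FANCA, WRN, XRCC1, LIG1 and PMS2. They were compared by an exact two-sided permutation test, whose smallest p with 4 against 4 libraries is 0.0286 and which was not adjusted. ATRIP was at 1.9, 1.1, 1.72 and 1.76 (0h), 0.68, 0.38, 0.75 and 0.94 (22h) and 0.1, 0.59, 0.27 and 0.3 FPKM (46h). Its 0h libraries lay above all later ones (exact p = 0.0286 at 22h and at 46h against 0h). RAD54L, a translocase of homologous recombination, was at 0.79, 0.26, 0.67 and 1.63 (0h), 1.5, 0.62, 1.15 and 0.42 (22h) and 0.16, 0.27, 0.35 and 0.23 FPKM (46h), with all 46h values under all 22h values (exact p = 0.0286). PRKDC, the catalytic subunit recruited by Ku, lay between 0.37 and 0.55 FPKM at 22h and between 0.26 and 0.34 FPKM at 46h (exact p = 0.0286), with 0.29 to 0.53 FPKM at 0h. PMS2, a mismatch repair endonuclease, was at 0.05, 0.09, 0.12 and 0.24 FPKM at 0h and 0.05, 0.09, 0.13 and 0.1 FPKM at 22h and was listed at 0 in all 46h libraries (exact p = 0.0286 against each earlier stage). So 1 of the 10 lay wholly lower at 22h than at 0h, 3 at 46h than at 22h and 2 at 46h than at 0h. Among all 10620 genes with a value above 0 and a mean under 1 FPKM these patterns were found in 4.6%, 8.41% and 14.4%. WRN, the second RecQ helicase, stood at 1.09 ± 0.41 (0h), 0.72 ± 0.208 (22h) and 1.1 ± 0.533 FPKM (46h), and LIG1, the replicative ligase, at 0.28 ± 0.153 (0h), 0.412 ± 0.124 (22h) and 0.195 ± 0.0874 FPKM (46h), neither with p under 0.05. FANCA was at most 0.13 FPKM, XRCC1 at most 0.31 FPKM, MDC1 at most 0.04 FPKM and XRCC3 at most 0.03 FPKM in any library, and FANCA and XRCC3 were listed at 0 in all 46h libraries.

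Because the libraries were primed on poly(A) tails, the ends of the members' transcripts bear on what was measured. During oocyte maturation, tails of some stored transcripts are lengthened through cytoplasmic polyadenylation elements near their 3′ end. The last 100 bases of the 3′ UTR, taken from 1 RefSeq mRNA per gene on Sscrofa11.1, were searched on the transcript strand for TTTTAT and TTTTAAT. The latter can overlap the polyadenylation hexamer AATAAA, as it does in NBN. A window of 100 bases was at hand for 29 of the 31 tested members and for 5104 (72.8%) of all 7013 genes. A match was found in 9 of the 29 members and in 1174 (23.0%) of the 5104 genes. The sites of 3 members that rose and 2 that fell by 46h are shown from the start of the last match. Each runs to the end of the transcript or for 30 bases, with the match in capitals, and for XRCC2 also the hexamer that follows it. The mRNA taken for CHEK2 ends well inside the gene's span, chr14:45699833-45967350, so its window is not the end of that span.
PALB2 (chr3:22612824-22612837, plus strand): TTTTATtttggtac
BRCA2 (chr11:8858067-8858096, plus strand): TTTTATgattccaatgtggtttgtgaaatt
XRCC2 (chr18:4834243-4834272, plus strand): TTTTAATctAATAAAagattacattatatc
CHEK2 (chr14:45929758-45929787, minus strand): TTTTATactttgtatttccattataggaat
APEX1 (chr7:78451887-78451916, minus strand): TTTTAATattaaaaactactgatgagttcc

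A match was thus found in members that went up and in members that went down. The search set no position of a match relative to the hexamer. In PALB2 the match starts 14 bases from the transcript end, with no hexamer after it. CHEK2 had neither AATAAA nor ATTAAA in its last 40 bases. Of the 9, PALB2, BRCA2 and XRCC2 were higher at 46h than at 0h, CHEK2, MRE11, NBN and APEX1 were lower, and LIG4 and FANCI did not pass. Of the 20 members without a match, 7 were higher and 6 were lower. Of all genes with a window, 22.8% of those with a match were higher and 26.8% lower, and of those without a match 15.5% and 39.2%. Over all genes with a window, the log2 fold changes by 46h had a median of 0.09 with a match and -0.27 without. The share of genes with a window is under 80%, so this comparison over all genes is void as a check. A match describes letters in the annotated end and no tail was measured. Spearman's rho between transcript length and the change from 0h to 46h was 0.077 over these 29 members, and it was 0.287 with the length of the 3′ UTR and -0.087 with coding length. Over all 5104 genes with a window these were 0.163, 0.117 and 0.165, and all genes share the same libraries.

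Other repair genes, from a list of 117 of which 110 were matched and 73 tested, were described beside the members. At 46h against 0h, 13 (17.8%) were higher and 16 (21.9%) lower, where 16.8% and 39.1% of all genes tested were. The median of their log2 fold changes was 0.10, against -0.25 for all genes tested. At 22h against 0h the counts were 5 (6.85%) and 4 (5.48%), where 7.84% and 18.9% of all genes were. At 46h against 22h they were 11 (15.1%) and 15 (20.5%), where 9.87% and 32.6% were. These are counts of the other repair genes as deposited, and their change with the scaling is not given here. The largest falls were those of MGMT, which removes alkyl groups from guanine, and of SYCP3 and SPATA22 of meiotic recombination. MGMT stood at 116 ± 39.9 (0h), 79.8 ± 25.1 (22h) and 2.14 ± 1.65 FPKM (46h) (46h against 0h -5.33 ± 0.36, adjusted p = 1.27e-08). SYCP3, a part of the synaptonemal complex axis, stood at 989.7 ± 67 (0h), 533 ± 105 (22h) and 55 ± 10.8 FPKM (46h) (-4.16 ± 0.18, adjusted p = 1.93e-10). SPATA22, which binds single-stranded DNA in meiosis, stood at 105 ± 22.1 (0h), 105 ± 14.7 (22h) and 8.84 ± 1.96 FPKM (46h) (-3.43 ± 0.19, adjusted p = 2.14e-09). The largest rises were those of RAD1, RMI1 and NEIL3. RAD1, a part of the clamp that activates ATR, stood at 37.5 ± 21.5 (0h), 45.4 ± 20.4 (22h) and 139.7 ± 25.9 FPKM (46h) (2.08 ± 0.45, adjusted p = 0.00097). RMI1, the partner of BLM, stood at 6.98 ± 1.67 (0h), 12.4 ± 5.04 (22h) and 26.1 ± 3.37 FPKM (46h) (1.78 ± 0.27, adjusted p = 4.81e-05). NEIL3, a glycosylase for oxidised bases, stood at 217 ± 70.1 (0h), 363 ± 73.9 (22h) and 675 ± 61.4 FPKM (46h) (1.69 ± 0.24, adjusted p = 2.38e-05).

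**Figure D4:**
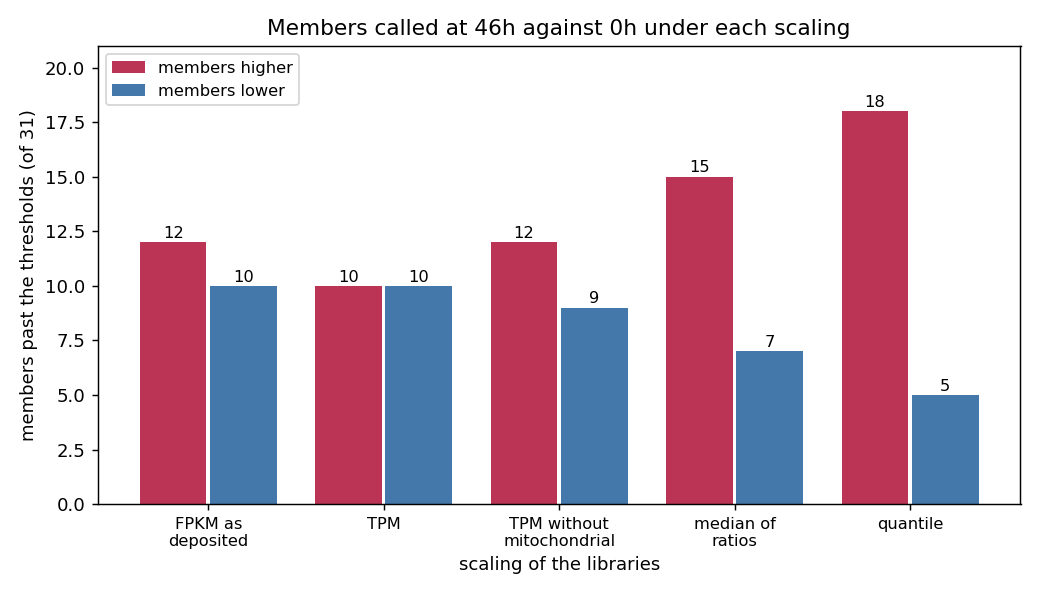
Number of the 31 tested members past the thresholds at 46h against 0h, higher and lower, under 5 scalings of the libraries. The count of higher members runs from 10 with TPM to 18 with quantile normalization, and that of lower members from 5 to 10. Of all 7013 genes tested, 14.3% were higher and 41.8% lower with TPM. With quantile normalization 41% were higher and 25.5% lower.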

How the data were processed

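The authors trimmed reads with Trim Galore, aligned them to Sscrofa11 with STAR and quantified genes with RSEM, and the deposited values are FPKM with 2 decimals. Their counts were not analysed here, whole reads could not be recovered from the FPKM values, and sequencing depth and counting precision are unknown. The design text gives the middle stage as 24h; the labels, followed here, give 22h. Identifiers were named through a table of Ensembl identifiers and symbols, and positions and transcript ends came from RefSeq on Sscrofa11.1.

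Log2(FPKM + 1) was fitted by limma (version 3.58.1, R 4.3.3; lmFit and then eBayes with trend), with stage as the single factor over 12 libraries and genes of mean FPKM of at least 1. Two-sided p-values were adjusted after Benjamini and Hochberg over 7013 genes and called at adjusted p under 0.05 and a fold change over 1.5. The difference between the 2 steps, (46h - 22h) - (22h - 0h), used the adjusted p alone. The fit was tested on simulated data. Lists were described by counts and medians, with no test of a list. Genes named are all members, by role; values of every library are given for up to 4 members per role that passed, by size of change, and for the most abundant member of a role; outside the members, the 3 largest rises and falls of other repair genes and the cell type markers. The members and lists were chosen with earlier results of these data known. Alternatives were a pseudocount of 0.1, no filter, a mean of at least 5 FPKM, other scalings, only the stages compared, eBayes without trend, a replicate block and each library left out. Tables were made with Python 3.11.15 and pandas 2.3.3.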

Additional observations from a re-analysis of the deposited data

Results flagged for a closer look

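In 4 of the 123 sets of 4 libraries of a stage, 41 matched members at 3 stages, 1 library lay far from the other 3 by Dixon's 95% critical value, which chance alone passes in about 1 of 20 sets. FANCD2 at 22h was 18.24 FPKM in replicate 1 and 8.94 to 9.23 FPKM in the others. PRKDC at 46h was 0.26 FPKM in replicate 4 and 0.33 to 0.34 FPKM in the others. MDC1 at 46h was 0.02 FPKM in replicate 1, and XRCC3 at 22h was 0.03 FPKM in replicate 3, with the other libraries of each stage listed at 0.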

How the results depend on the processing

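Values relative to a library shift with what else it holds, and calls moved with the scaling. Of the 42 calls of members, 27 held under every alternative that was run on them and 31 under all but quantile normalization. A mean of at least 5 FPKM removes 7 of the 42 calls from the test, 3 of the 27 among them (PARP1 at 46h against 22h and both of PARP2), and says nothing of these. Those 27 were 6 of 7 at 22h against 0h, 6 of 13 at 46h against 22h and 15 of 22 at 46h against 0h. Depth is unknown, and members under 1 FPKM are near the 2 decimals of the values. Calls gained at 46h against 22h by PALB2, RPA1, XRCC6 and LIG4 are given above with these members. The others gained in that comparison were BRCA1 (0.72 and 0.93), BRCA2 (0.76 and 0.82), BLM (0.86 and 0.98), UNG (1.19 and 1.31) and MSH6 (0.61 and 0.74) with median-of-ratios scaling and quantile normalization, LIG3 with TPM (-0.59), and with a library left out BLM (0.59 to 0.65) and UNG (both 1.06). The cause of the changes under other settings was not tested.

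At 46h against 22h, 6 members higher and 7 lower became 13 and 4 with median-of-ratios scaling and 15 and 2 after quantile normalization, while the shares of all genes went from 9.87% and 32.6% to 20.1% and 25.6% and to 28.1% and 19.1%, and at 46h against 0h, 10 lower became 5 with quantile normalization. A larger fall after 22h was called for 1 member in place of 2 with a mean of at least 5 FPKM, which removes PARP1, and a larger rise for 0 with no filter, 3 under median-of-ratios scaling and 4 under quantile normalization, in place of 1. That count of 1 ran from 0 to 3 with single libraries left out. As deposited, 4.73% of all genes tested had such a larger rise or smaller fall. The share of all genes under the other settings is not given here, so these counts cannot be read as particular to the members. Low members wholly lower ran from 1 to 2 at 22h against 0h (2 without replicate 4 at 0h), 3 to 5 at 46h against 22h (5 without replicate 2 at 22h) and 2 to 4 at 46h against 0h (4 without replicate 2 at 0h). The shares of all genes under 1 FPKM with a library left out are not given here either.

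Signs turned, on the log2 scale, with median-of-ratios scaling ATR 0.15, TP53BP1 0.13, RAD50 0.26, BARD1 0.12, RPA2 0.30, FANCI 0.13, FANCM 0.020 at 46h against 22h and TP53BP1 0.19, RAD50 0.33, RPA2 0.27 at 46h against 0h, with quantile normalization RPA2 0.0051, FANCM 0.018 at 22h against 0h and ATR 0.46, TP53BP1 0.47, MRE11 0.15, RAD50 0.38, BARD1 0.23, RPA2 0.16, FANCI 0.20, FANCM 0.23 at 46h against 22h and TP53BP1 0.64, RAD50 0.48, NBN 0.080, RPA2 0.16, FANCM 0.25 at 46h against 0h, with TPM without mitochondrially encoded genes RPA2 0.0025 at 22h against 0h and RAD50 0.031 at 46h against 0h. With single libraries left out, the ranges that crossed 0 were TP53BP1 -0.13 to 0.21, RAD50 -0.18 to 0.23, NBN -0.064 to 0.099, RPA1 -0.048 to 0.27, LIG4 -0.016 to 0.29, FANCD2 -0.49 to 0.039, PARP2 -0.040 to 0.10 at 22h against 0h, and ATR -0.15 to 0.0021, TP53BP1 -0.23 to 0.070, RAD50 -0.16 to 0.044, RPA2 -0.10 to 0.012 at 46h against 22h, and TP53BP1 -0.17 to 0.14, RAD50 -0.26 to 0.15, FANCI -0.016 to 0.25 at 46h against 0h. None of these was called as deposited except NBN at 46h against 0h.

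Whether the replicate numbers pair the samples is unknown. Correlations of same-numbered libraries, as deviations from the stage means, ran from -0.466 to 0.381, with 3 of 12 over 0.1. In 7 of 24 comparisons a library was closest to its own number. Between 22h and 46h the correlations were 0.381, 0.00884, 0.211 and 0.127 for replicates 1 to 4. With 4 libraries per stage these values cannot decide whether samples were paired. With a replicate block, 3 members were higher and 4 lower at 22h against 0h, 6 and 7 at 46h against 22h, and 12 and 10 at 46h against 0h, and no call of a member changed.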
